A study of Mus musculus with 5 samples.

Results

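The 48 genes described here drive, restrain or mark cell division. They include 10 cyclins, 4 cyclin-dependent kinases (CDKs), 3 CDK inhibitors, 8 E2F factors, 3 pocket proteins and 3 CDC25 phosphatases with Cdc20. The others are the 6 MCM helicase subunits, 7 mitotic and checkpoint kinases, and Mki67, Top2a and Pcna. All were found by their symbols in the gene column of 5 tables of Ago HITS-CLIP from mouse liver. All 48 were among the 14348 genes that had a cluster in an mRNA in at least 1 table. HITS-CLIP crosslinks Ago to RNA with ultraviolet light in the tissue, precipitates Ago with an antibody, and sequences the RNA bound to it. A cluster is a stretch of overlapping reads, listed with each miRNA whose seed matches it. The livers were from C57BL/6 mice at 3 embryonic ages in days (e12.5, e15.5, e18.5), at postnatal day 7 (P7), and as adults of 6 to 8 weeks, with 1 table per stage and no treatment or mutation. Ago2 antibodies were used at every stage. An Ago1 antibody was added at P7 and in adult, so between embryonic and later tables a difference of stage and a difference of antibody cannot be told apart. Each embryonic table holds 2 lists of clusters that the labels do not describe, and they were not treated as replicates.

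The level of a gene is given in RPM. It is the sum, over the clusters in its 3′UTR, coding sequence (CDS) and 5′UTR, of the highest read number of each cluster, per 1000000 of the summed cluster reads of the table. The tables held 76948 to 208193 clusters and 13008703 to 44867326 summed cluster reads. Only clusters of at least 5 reads that hold a seed match are in the tables. A gene that is not listed may thus have had fewer reads, and it entered ratios and sums as 0. There were no replicates, so no difference between stages was tested and all differences are between single tables. The level follows the amount of mRNA as well as the binding of Ago, and mRNA was not measured here. In whole liver, fewer cells of a type and less RNA per cell cannot be told apart.

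As background, cyclins activate CDKs, and the CDKs phosphorylate the pocket proteins, which then release E2F factors to switch on the genes of DNA replication. The MCM proteins form the ring helicase that opens DNA at origins. The Aurora and Polo kinases, Cdc20 and the Bub kinases run and monitor mitosis, while the CDK inhibitors hold the cycle back. The fetal liver grows quickly and is also the site of blood formation, whereas adult hepatocytes divide rarely. Several miRNA families, among them let-7, miR-15/16, miR-17 and miR-34, are known for targeting cell cycle mRNAs.

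Nearly the whole group of cell cycle mRNAs carried Ago clusters before birth, and most of that signal was not seen in the adult table. An mRNA cluster was listed for 47 of the 48 genes at e12.5, 48 in e15.5, 46 in e18.5, 46 in P7 and 29 in adult. Of all 14348 genes, an mRNA cluster was listed for 82.4% at e12.5, 66.7% in e15.5, 69% in e18.5, 84.1% in P7 and 70.9% in adult. The share among the cell cycle genes was 97.9% at e12.5 and 60.4% in adult. The summed level of the 48 genes was 3143 RPM at e12.5, 4354 in e15.5, 2109 in e18.5, 897 in P7 and 109.9 in adult. The e12.5 sum was 28.6 times that of the adult table. Of the 48 genes, 25 were highest at e15.5, 15 at e12.5, 6 at e18.5, 2 at P7 and none in adult. 41 genes were lower in adult than in every other table. Levels of single genes depended on the list of the embryonic tables. With each list scaled to its own reads, 4 of the 48 genes differed by 4-fold or more between the lists at e12.5, 18 in e15.5 and 10 in e18.5. In the first e15.5 list 15 genes were missing, and Chek1 had 49.2 RPM in the first and 2.9 in the second. The order of the embryonic stages for a single gene can thus turn with the list.

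From e12.5 to adult, the change was computed as the log2 ratio after adding 1 RPM, for genes with at least 5 RPM in either table. Of the 44 cell cycle genes that passed this minimum, 39 were lower by 4-fold or more and 1, Cdkn1a, was higher. In the same comparison 36.52% of all 7102 genes were lower by 4-fold or more and 13.18% were higher. With a pseudocount of 10 RPM, 27 cell cycle genes and 7.98% of all genes were lower by this limit, and Cdkn1a was no longer past it. The minimum was met by 43 of the 48 genes at e12.5 and by 5 in adult. A gene that met it at e12.5 and was not listed in adult is lower by this rule in every case. Among the 39 lower genes, 17 were not listed in adult at all. Without a minimum, 39 of 48 cell cycle genes and 22.7% of all genes were lower by 4-fold or more. The median log2 change of the cell cycle genes was -4.56, beside -1.29 for all genes. Scaling to the reads of mRNA clusters alone moved the median of all genes to -0.29, with 27.6% of genes lower and 22.4% higher. On that scale 41 of 48 cell cycle genes were lower, 1 was higher and their median was -4.94. The genes below the minimum were Cdk6, E2f5, E2f6 and Rbl2.

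The P7 and adult tables share their antibodies, and between them 25 of 36 cell cycle genes were lower by 4-fold or more in adult and none was higher. In this comparison 19.01% of all 6307 genes were lower and 2.95% were higher. The median log2 change was -2.67 for the cell cycle genes and -0.89 for all genes. Within the embryonic tables, all made with Ago2 antibodies, 5 of 46 cell cycle genes were lower by 4-fold or more at e18.5 than at e12.5, where 12.48% of all genes were lower and 18.77% were higher. The count was thus near the share of all genes, while the median log2 change was -0.69 for the cell cycle genes and 0.30 for all genes, with 35 of 46 below 0. The 5 lower genes were Ccnb1, Ccne1, Cdc20, Cdc25c and Cdk1. Cdkn1a and Rbl2 were higher. The comparisons share the e12.5 or adult tables and do not stand apart from each other.

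**Figure D1:**
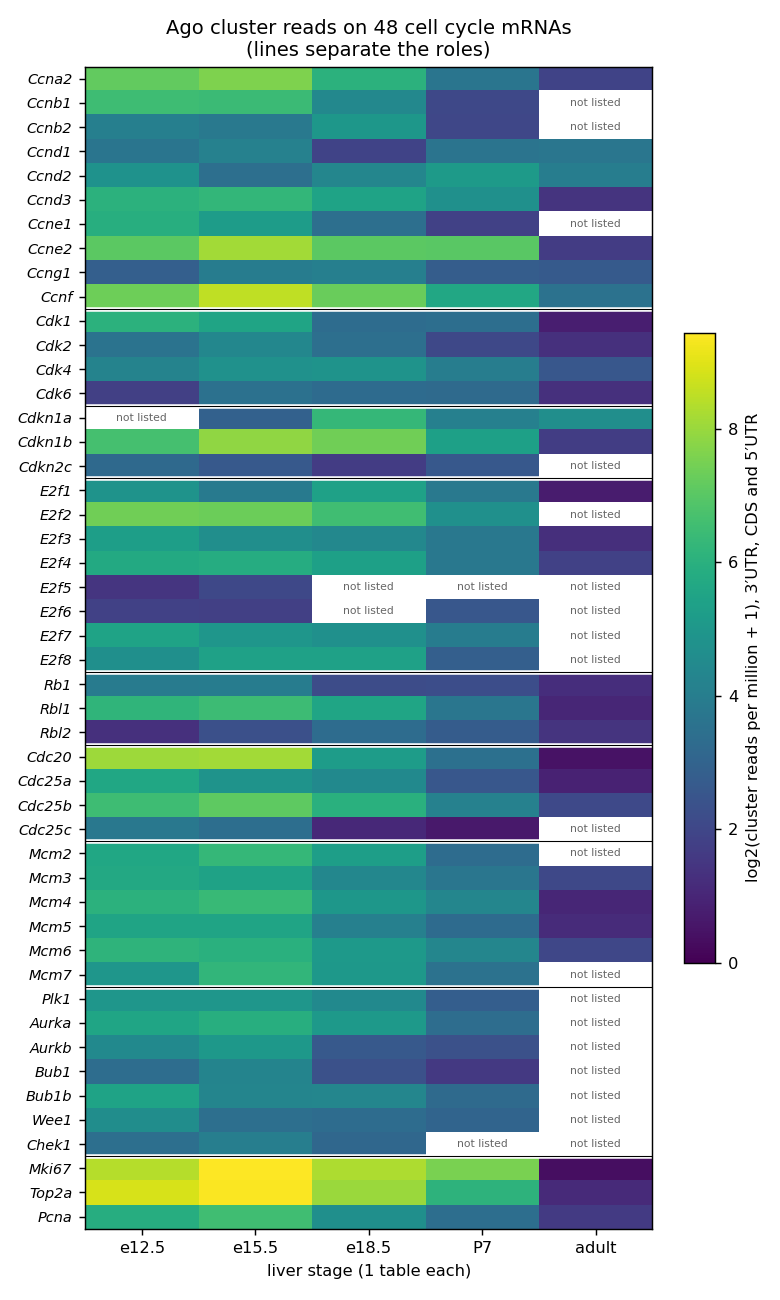
Level of each of the 48 genes (rows, in groups by role) in each of the 5 tables (columns), as log2 of the RPM plus 1, with white cells where no mRNA cluster was listed. The embryonic columns are brightest for Mki67 and Top2a, and the adult column holds 19 white cells.

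Clusters lay in both the 3′UTR and the CDS of these mRNAs. A 3′UTR cluster was listed for 42, 39, 34, 39 and 14 of the 48 genes from e12.5 to adult, and a CDS cluster for 47, 45, 45, 43 and 23. As a share, 3′UTR clusters were listed for 87.5% of the cell cycle genes at e12.5 and 29.2% in adult. For all genes with an mRNA cluster in any table these shares were 58.6% and 40.1%. CDS clusters held 73.8% of the mRNA cluster reads of the cell cycle genes at e12.5 and 66.5% in adult, beside 72.4% and 71.6% over all genes. A cluster that several transcripts place in different regions counts in each of them.

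**Figure D2:**
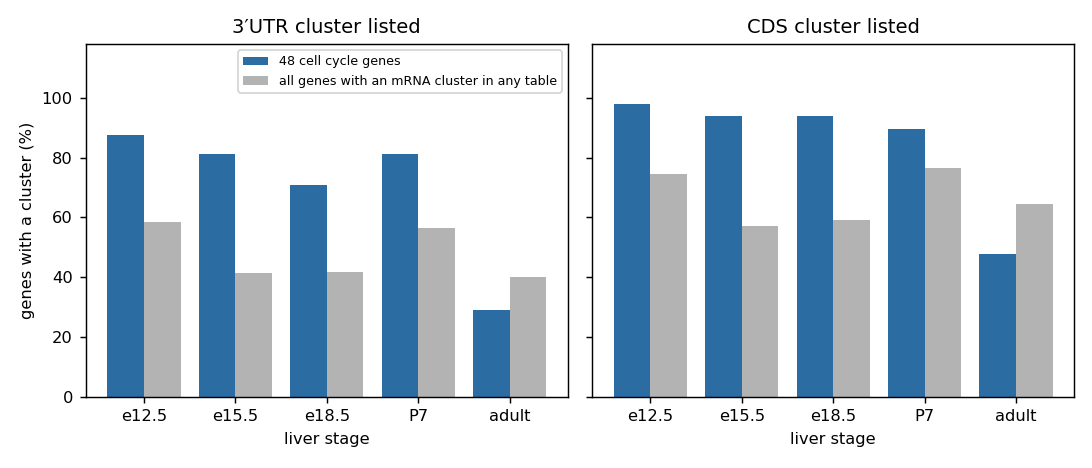
Percentage of genes with a listed 3′UTR cluster (left) or CDS cluster (right) at each stage, for the 48 cell cycle genes (blue) and for all genes with an mRNA cluster in any table (gray). The blue bars stand above the gray bars from e12.5 to P7 and below them in adult.

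Cyclins were the group with the most genes, with a summed RPM of 711 in e12.5 liver, 1098 in e15.5, 498 in e18.5, 275 in P7 and 49.6 in adult. Ccna2, the S phase and G2 cyclin, had 142 RPM in e12.5 liver, 197 in e15.5, 66.8 in e18.5, 11.6 in P7 and 2.69 in adult. Ccnb1, the mitotic partner of Cdk1, had 90 RPM in e12.5 liver, 86.6 in e15.5, 20.3 in e18.5 and 3.09 in P7, and was not listed in adult. Ccnb2, the other mitotic B cyclin, had 15.7 RPM in e12.5 liver, 13.2 in e15.5, 30.9 in e18.5 and 3.03 in P7, and was not listed in adult. Ccna2 and Ccnb1 were highest at e12.5 or e15.5 and Ccnb2 at e18.5, and all 3 were lowest or not listed in adult. Ccne1, which starts S phase with Cdk2, had 59 RPM in e12.5 liver, 36.3 in e15.5, 9.92 in e18.5 and 2.55 in P7, and was not listed in adult. Its relative Ccne2 had 132 RPM in e12.5 liver, 277 in e15.5, 132 in e18.5, 129 in P7 and 2.21 in adult. The E cyclins thus differed at P7, where Ccne2 stayed near its e12.5 level and Ccne1 did not. This rested on 1 miR-30 site in the Ccne2 3′UTR, whose reads were 122 of the 129 RPM at P7. At e12.5 that site had 80.2 of the 132 RPM, so outside it Ccne2 was also lower at P7. Ccnf, the substrate-binding part of an SCF ubiquitin ligase, had 161 RPM in e12.5 liver, 372 in e15.5, 157 in e18.5, 49.5 in P7 and 10.9 in adult. It was the cyclin listed in all 5 tables with the highest e15.5 level, with a log2 change of -3.77 from e12.5 to adult.

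The D cyclins, which couple growth signals to Cdk4 and Cdk6, differed from each other. Ccnd1 had 11.7 RPM in e12.5 liver, 16.9 in e15.5, 2.77 in e18.5, 11.4 in P7 and 11.9 in adult. Ccnd2 had 26.9 RPM in e12.5 liver, 9.93 in e15.5, 19.4 in e18.5, 34 in P7 and 14.9 in adult. Ccnd3 had 66.7 RPM in e12.5 liver, 74.9 in e15.5, 43 in e18.5, 25.6 in P7 and 1.65 in adult. The log2 change from e12.5 to adult was 0.02 for Ccnd1, -0.82 for Ccnd2 and -4.68 for Ccnd3, so only Ccnd3 of the D cyclins passed the 4-fold limit. Ccng1, a p53-induced cyclin, had 6.2 RPM in e12.5 liver, 14.8 in e15.5, 15.7 in e18.5, 5.82 in P7 and 5.38 in adult, a log2 change of -0.17. In adult, Ccnd2 had 8 clusters in its 3′UTR and Ccng1 had 6, while Ccna2 had 1.

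Among the CDKs, Cdk1, the mitotic kinase, had 65.4 RPM in e12.5 liver, 45.2 in e15.5, 8.99 in e18.5, 9.7 in P7 and 0.723 in adult. Cdk2, the partner of the E and A cyclins, had 11.1 RPM in e12.5 liver, 19.5 in e15.5, 9.99 in e18.5, 3.09 in P7 and 1.49 in adult. Both were lower by 4-fold or more in adult than at e12.5. The D cyclin kinase Cdk4 had 17.8 RPM in e12.5 liver, 26.5 in e15.5, 27.7 in e18.5, 15.1 in P7 and 4.98 in adult. Cdk6, its relative, had 2.47 RPM in e12.5 liver, 10.5 in e15.5, 8.92 in e18.5, 8.61 in P7 and 1.49 in adult. Cdk4 was listed in every table with a log2 change of -1.65, short of the 4-fold limit, and Cdk6 stayed near or below 10 RPM throughout.

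The CDK inhibitors differed in direction. Cdkn1a, which encodes p21, was the only gene of the 48 without an mRNA cluster at e12.5. It had, in RPM, 6.66 in e15.5, 77.6 in e18.5, 16.3 in P7 and 24.5 in adult. In adult it made up 22.3% of the level of all 48 genes. In contrast, Cdkn1b, which encodes p27, had 99.7 RPM in e12.5 liver, 234 in e15.5, 168 in e18.5, 39.8 in P7 and 2.25 in adult. Its 3′UTR held 12 clusters at e12.5, 8 in e15.5, 10 in e18.5 and 10 at P7, and none was listed in adult. Cdkn2c, which encodes p18, had 8.47 RPM in e12.5 liver, 5.27 in e15.5, 2.23 in e18.5 and 5.09 in P7, and was not listed in adult. In the e18.5 table the 2 lists gave Cdkn1a 88.7 and 35.2 RPM, and at e15.5 it was in the second list alone.

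**Figure D3:**
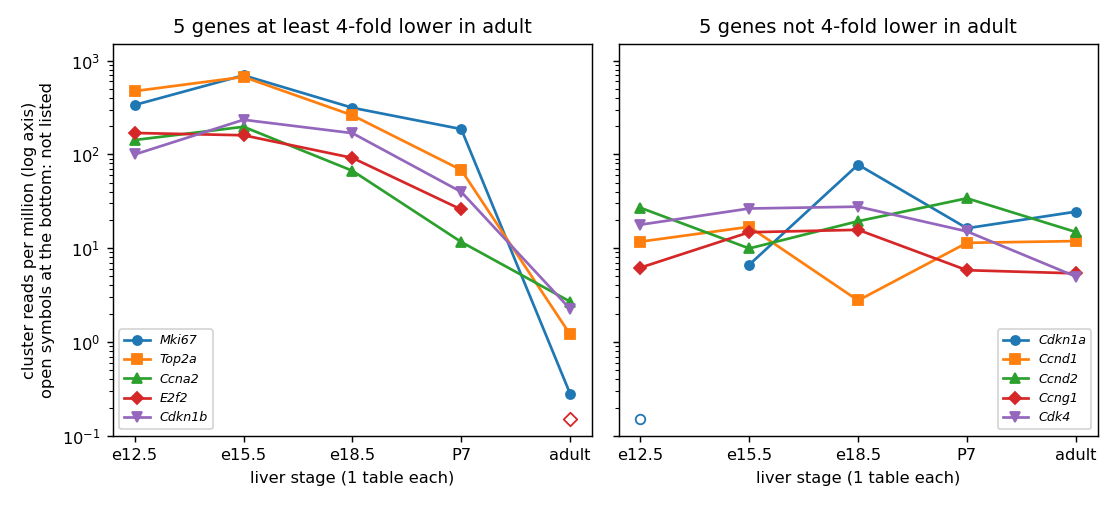
RPM (log axis) of 10 genes in the 5 tables, with 1 line per gene and open symbols at the bottom where the gene was not listed. Mki67, Top2a, Ccna2, E2f2 and Cdkn1b (left) end far below their embryonic levels, whereas Cdkn1a, Ccnd1, Ccnd2, Ccng1 and Cdk4 (right) remain at 4.98 to 24.5 in adult.

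E2F factors were listed for 8 of 8 genes at e12.5 and 3 of 8 in adult, with a summed RPM of 361 in e12.5 liver, 331 in e15.5, 259.9 in e18.5, 90.2 in P7 and 4.58 in adult. The activators gave these levels. E2f1 had 27.8 RPM in e12.5 liver, 13.3 in e15.5, 41.2 in e18.5, 13.1 in P7 and 0.643 in adult. E2f2 had 169 RPM in e12.5 liver, 159.7 in e15.5, 91.6 in e18.5 and 25.8 in P7, and was not listed in adult. E2f3 had 38.4 RPM in e12.5 liver, 24.2 in e15.5, 20.1 in e18.5, 12.6 in P7 and 1.41 in adult. E2f2 was the E2F with the most 3′UTR clusters, 39 at e12.5, 19 in e15.5, 14 in e18.5, 15 in P7 and none in adult. The repressor E2f4 had 52.2 RPM in e12.5 liver, 56.9 in e15.5, 40.1 in e18.5, 12.8 in P7 and 2.53 in adult. E2f7, an atypical repressor, had 44 RPM in e12.5 liver, 29.9 in e15.5, 25.9 in e18.5 and 14.6 in P7, and was not listed in adult. The other atypical repressor, E2f8, had 25.3 RPM in e12.5 liver, 41.2 in e15.5, 41 in e18.5 and 6.3 in P7, and was not listed in adult. All 6 of these E2Fs were lower by 4-fold or more in adult than at e12.5, and no E2F had a 3′UTR cluster there. E2f5 and E2f6 never exceeded 4.91 RPM and were not listed in adult.

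The pocket proteins Rb1, Rbl1 and Rbl2 bind and hold E2Fs. Rb1 had 14.3 RPM in e12.5 liver, 14.7 in e15.5, 3.54 in e18.5, 3.7 in P7 and 1.33 in adult. Rbl1, which encodes p107, had 70.9 RPM in e12.5 liver, 87.2 in e15.5, 45.4 in e18.5, 12 in P7 and 1.0 in adult. Rbl2, which encodes p130 and is known for quiescent cells, had 1.47 RPM in e12.5 liver, 4.0 in e15.5, 9.15 in e18.5, 5.7 in P7 and 1.65 in adult. Rbl1 was highest at e15.5 and Rbl2 at e18.5. Rbl2 was the pocket protein with about equal e12.5 and adult values, both below the minimum of 5.

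Cdc25a, which activates Cdk2, had 48.3 RPM in e12.5 liver, 28.1 in e15.5, 21.6 in e18.5, 4.97 in P7 and 0.884 in adult. Cdc25b, an activator of Cdk1, had 90.2 RPM in e12.5 liver, 136 in e15.5, 62.4 in e18.5, 16.8 in P7 and 3.21 in adult. Cdc25c, another activator of Cdk1, had 12.8 RPM in e12.5 liver, 9.56 in e15.5, 1.15 in e18.5 and 0.545 in P7, and was not listed in adult. All 3 phosphatases were lower by 4-fold or more in adult than at e12.5. Cdc20, which activates the anaphase-promoting complex, had 269 RPM in e12.5 liver, 277 in e15.5, 36.2 in e18.5, 10.1 in P7 and 0.362 in adult. Per kilobase of annotated mRNA, Cdc20 was the highest of the 48 genes at e12.5, with 150.0 RPM, followed by Top2a with 90.4. In a single list, its leading CDS cluster alone had 169 RPM at e12.5 and 207 in the e15.5 table.

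The MCM subunits, which assemble in equal numbers into 1 ring, were at 30 to 69.1 RPM at e12.5. Mcm2 had 48.6 RPM in e12.5 liver, 77.5 in e15.5, 38.1 in e18.5 and 9.03 in P7, and was not listed in adult. Mcm3 had 51.3 RPM in e12.5 liver, 42.1 in e15.5, 19.7 in e18.5, 12 in P7 and 3.13 in adult. Mcm4 had 65.6 RPM in e12.5 liver, 81.7 in e15.5, 30.9 in e18.5, 19 in P7 and 1.0 in adult. At e12.5 the CDS held 24 clusters in Mcm2, 26 in Mcm3 and 23 in Mcm4. Mcm5 had 45.1 RPM in e12.5 liver, 44.9 in e15.5, 16.3 in e18.5, 8.91 in P7 and 1.25 in adult. Mcm6 had 69.1 RPM in e12.5 liver, 62.2 in e15.5, 33.2 in e18.5, 19.1 in P7 and 3.05 in adult. Mcm7 had 30 RPM in e12.5 liver, 74 in e15.5, 31.6 in e18.5 and 10.8 in P7, and was not listed in adult. All 6 were lower by 4-fold or more in adult than at e12.5, with log2 changes from -5.63 to -3.66. No MCM mRNA had a 3′UTR cluster in adult.

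None of the 7 mitotic and checkpoint kinases was listed in adult. Plk1, the Polo kinase, had 30.4 RPM in e12.5 liver, 30 in e15.5, 21.4 in e18.5 and 6.06 in P7, and was not listed in adult. Aurka, which acts at the spindle poles, had 46 RPM in e12.5 liver, 59.6 in e15.5, 32.7 in e18.5 and 9.33 in P7, and was not listed in adult. Aurkb, the kinase of the chromosomal passenger complex, had 21.6 RPM in e12.5 liver, 31.6 in e15.5, 5.23 in e18.5 and 4.12 in P7, and was not listed in adult. In the joined tables these mitotic kinases were highest at e12.5 or e15.5 and lower at P7 than before birth. That order turns with the list, as the second e18.5 list alone gave Plk1 2.96 and Aurka 3.33 RPM, and Aurkb was missing from the first e15.5 list. Bub1 had 9.38 RPM in e12.5 liver, 18.3 in e15.5, 4.07 in e18.5 and 2.0 in P7, and was not listed in adult. Bub1b, which encodes BubR1, had 43.1 RPM in e12.5 liver, 18.9 in e15.5, 19.3 in e18.5 and 8.73 in P7, and was not listed in adult. They were alike at e15.5, and Bub1b was the higher at the other stages before adult. Wee1, the kinase that holds Cdk1 inactive, had 23.5 RPM in e12.5 liver, 9.81 in e15.5, 8.99 in e18.5 and 7.21 in P7, and was not listed in adult. Chek1, which halts the cycle after DNA damage, had 9.85 RPM in e12.5 liver, 15.3 in e15.5 and 7.99 in e18.5, and was not listed in P7 or in adult. All 7 were lower by 4-fold or more in the comparison of adult with e12.5. Wee1 and Bub1, like Ccnb2 and Mcm7, had CDS clusters but no 3′UTR cluster in any table.

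Mki67 and Top2a, both markers of dividing cells, had the highest levels of the 48 genes in each embryonic table. Mki67, which encodes the Ki-67 protein, had 336 RPM in e12.5 liver, 695 in e15.5, 313 in e18.5, 186 in P7 and 0.281 in adult. Its adult value rested on a single 3′UTR cluster of 7 reads. Ki-67 has a long CDS, and 54 or more CDS clusters were listed in each table before adult and none in adult. Per kilobase of annotated mRNA, Mki67 had 33.4 RPM at e12.5, beside 90.4 for Top2a. Top2a, which encodes DNA topoisomerase II alpha, had 472 RPM in e12.5 liver, 668 in e15.5, 261 in e18.5, 68.1 in P7 and 1.21 in adult. They made up 16% and 15.4% of the level of the 48 genes at e15.5. Pcna, the sliding clamp of DNA polymerase, had 58.1 RPM in e12.5 liver, 91.6 in e15.5, 24.8 in e18.5, 9.52 in P7 and 2.01 in adult. The log2 changes from e12.5 to adult were -8.04 for Mki67, -7.74 for Top2a and -4.30 for Pcna, and Mki67 was the lowest of all 48.

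**Figure D4:**
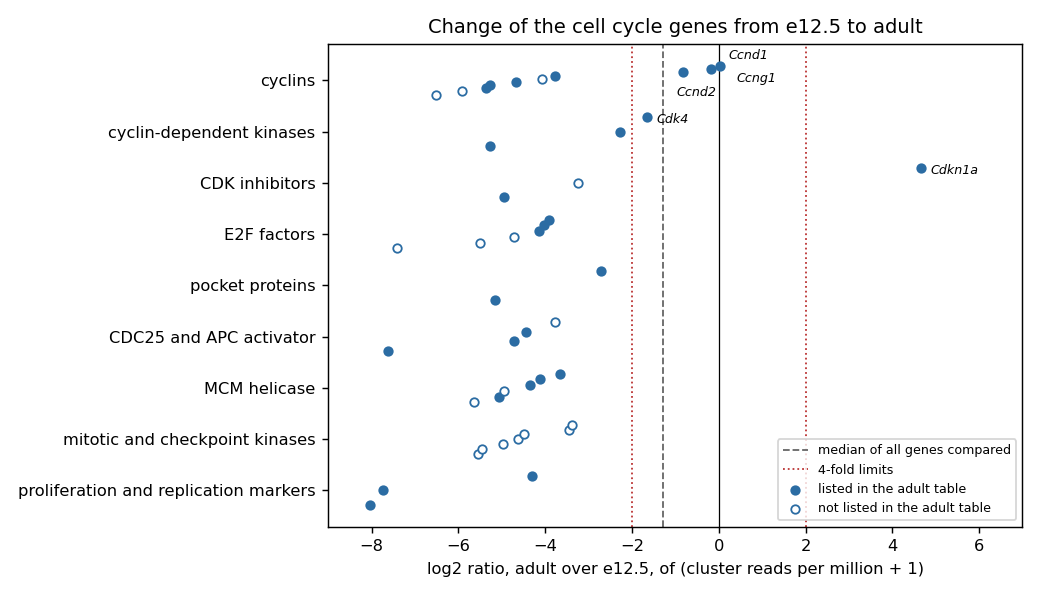
Log2 ratio of adult over e12.5 levels (RPM plus 1) for the 44 genes above the minimum, in rows by role, with open circles for genes not listed in adult. The dashed line is the median of all genes compared (-1.29) and the dotted lines are the 4-fold limits. Cdkn1a lies to the right, Ccnd1, Ccnd2, Ccng1 and Cdk4 lie between the limits, and the other 39 genes lie to the left.

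Next, the sites of abundant miRNAs were examined in these mRNAs. A 3′UTR site with at least 7 matched bases of a miRNA among the 100 most abundant of the same table was listed in 35 genes at e12.5, 26 in e15.5, 21 in e18.5, 28 in P7 and 9 in adult. As a share of the 48 genes this was 72.9% at e12.5, 54.2% in e15.5, 43.8% in e18.5, 58.3% in P7 and 18.8% in adult. Over all 14348 genes the share was 35.4% at e12.5, 23.8% in e15.5, 22.7% in e18.5, 33.8% in P7 and 22.1% in adult, so the cell cycle genes were above it in the first 4 tables and below it in adult. Pairs of gene and seed were ranked by the highest cluster of a single list. Of the first 12, 11 are shown, in Cdc20, Ccne2, Ccnf, Ccna2, Top2a and Cdkn1b. With the lists added the order differed, as E2f2 with miR-144-5p had 28 RPM at e15.5 and the Cdkn1b pair 24.8. The site sequences below are the target fragments of the tables, equal to GRCm38 (mm10) at the coordinates given, with the matched bases in capitals. In an 8mer the miRNA pairs through bases 2 to 8 and faces an A at base 1. A 7mer-m8 lacks that A, and a 7mer-A1 lacks the match at base 8.
Ccne2, miR-30 family, 8mer, chr4:11203334-11203355, plus strand: tataaaagagaactTGTTTACA
Ccna2, let-7 family, 8mer, chr3:36566593-36566614, minus strand: gaccttcaccagacCTACCTCA
Ccnf, miR-141/200a, 7mer-m8, chr17:24223454-24223475, minus strand: gtgtccctgcatatCAGTGTTg
Ccnf, miR-484, 7mer-m8, chr17:24223474-24223489, minus strand: agcctaggGAGCCTGt
Ccnf, miR-181 family, 7mer-m8, chr17:24223861-24223872, minus strand: atggTGAATGTt
Ccnf, miR-30 family, 7mer-m8, chr17:24223857-24223872, minus strand: atggtgaaTGTTTACt
Ccnf, miR-30f, 7mer-m8, chr17:24223858-24223872, minus strand: atggtgaATGTTTAc
Top2a, miR-192, 7mer-m8, chr11:98993219-98993239, minus strand: aggtgaggaaagtTAGGTCAg
Top2a, miR-451a, 7mer-A1, chr11:98993141-98993162, minus strand: gaggcaggactgctcACGGTTA
Cdkn1b, miR-186-3p, 7mer-A1, chr6:134924508-134924529, plus strand: tgtagcacataaacgTTAGGGA
Cdc20, miR-378a-3p, 8mer, chr4:118433102-118433113, minus strand: aatgAGTCCAGA

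The Ccne2 site of miR-30 was the leading 3′UTR site of the group. Its highest reads, in RPM as for the sites that follow, were 80.2 in e12.5 liver, 191 in e15.5, 109 in e18.5, 122 in P7 and 0.844 in adult. It is an 8mer with the maximum conservation score of 1, and the 5 miRNAs miR-30a to miR-30e share it. The let-7 8mer of Ccna2 had 62.6 in e12.5 liver, 24.5 in e15.5, 34.6 in e18.5, 5.64 in P7 and 2.69 in adult, also with a conservation score of 1. Both sites were listed in all 5 tables. The tables place the Ccna2 site in the 3′UTR as well as the CDS, and the GENCODE M21 annotation places it in the CDS. Over the same tables the let-7 family made up 2.45% of miRNA reads at e12.5 and 22.4% in adult, and the miR-30 family 1.41% at e12.5, 8.29% at P7 and 2.2% in adult.

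The Cdc20 entry for miR-378a-3p ranked first by its cluster alone. The site itself had 0.646 RPM at e12.5 in a cluster whose highest point in 1 list had 169, and it was listed in no other table, although a cluster of 5.33 covered its position at e15.5. GENCODE places it in the CDS. In Ccnf, the overlapping matches of miR-181, miR-30 and miR-30f near the start of the 3′UTR had 8.25 in e12.5 liver, 38.9 in e15.5, 16.4 in e18.5, 6.67 in P7 and 1.0 in adult, given for miR-30. The miR-141/200a site further along had 14.6 in e12.5 liver, 58.7 in e15.5, 13.6 in e18.5 and 0.667 in P7, and was not listed in adult. These Ccnf sites were highest at e15.5, as was the level of the gene. Ccnf carried a further miR-30 8mer in its CDS, with 25.6 in e12.5 liver, 51.8 in e15.5, 9.92 in e18.5, 7.7 in P7 and 3.3 in adult. The Top2a site of miR-192 had 25.5 in e12.5 liver, 33.2 in e15.5 and 25.9 in e18.5, and was not listed in P7 or in adult. The Top2a site of the erythroid miR-451a had 5.66 in e12.5 liver, 10.7 in e15.5 and 1.38 in e18.5, and was not listed in P7 or in adult. Both sites were thus limited to the embryonic tables. In Cdkn1b the miR-186-3p site had 5.91 in e12.5 liver, 24.8 in e15.5, 6.61 in e18.5 and 4.12 in P7. It was not listed in adult. The conservation score was 0.998 for this site and 0.934 for the Cdc20 site. In Ccnf it was 0 for miR-141/200a and miR-484, 0.032 for miR-181, 0.423 for miR-30 and 0.301 for miR-30f. In Top2a it was 0.004 for miR-192 and 0.02 for miR-451a.

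Further sites were chosen after their values were seen, because they lie in the genes that behaved differently or belong to textbook pairs. The mature sequences from RefSeq (GRCm38) are shown with the seed, bases 2 to 8, in capitals, for miRNAs of the sites above and below.
miR-30a-5p: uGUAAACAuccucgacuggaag
let-7c-5p: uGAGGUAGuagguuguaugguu
miR-20a-5p: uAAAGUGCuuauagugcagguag
miR-17-5p: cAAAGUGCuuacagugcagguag
miR-221-3p: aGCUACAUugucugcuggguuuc
miR-222-3p: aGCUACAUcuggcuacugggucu
miR-26a-5p: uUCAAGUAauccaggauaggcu
miR-29a-3p: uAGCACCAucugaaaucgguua
Rbl1, miR-17 family, 7mer-m8, chr2:157147476-157147496, minus strand: ttgcctgatcaaaGCACTTTt
E2f1, miR-17 family, 7mer-m8, chr2:154560211-154560231, minus strand: gtgggctctaactGCACTTTt
Cdkn1a, miR-17 family, 7mer-m8, chr17:29099816-29099836, plus strand: tcagacctgaataGCACTTTg
Cdkn1b, miR-222, 8mer, chr6:134924418-134924438, plus strand: ctaaaagcattggATGTAGCA
Ccnd2, miR-26, 8mer, chr6:127128925-127128940, minus strand: attcattgTACTTGAA
Cdkn1a, miR-122-5p, 7mer-A1, chr17:29099342-29099358, plus strand: agatttctatCACTCCA
Ccng1, miR-122-5p, 8mer, chr11:40749051-40749070, minus strand: aggcttgataaaACACTCCA
Ccnf, miR-30 family, 8mer, chr17:24224001-24224022, minus strand: aggccaagaagtcaTGTTTACA
Mki67, miR-29a, 8mer, chr7:135699286-135699307, minus strand: ttccaaacaccagcTGGTGCTA

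The miR-17 family, which includes miR-20a, is known for its targets in the pocket protein and E2F circuit. The Rbl1 site had 11.7 in e12.5 liver, 17.9 in e15.5, 21.3 in e18.5 and 2.73 in P7, and was not listed in adult. The E2f1 site had 8.65 in e12.5 liver, 0.726 in e15.5, 5.0 in e18.5 and 2.91 in P7, and was not listed in adult. The Cdkn1a site for the same seed had 0.606 in P7 and 3.66 in adult, and was not listed in e12.5, in e15.5 or in e18.5. The family itself made up 1.18% of miRNA reads at e12.5 and 0.331% in adult. In adult this seed was thus listed on the 3′UTR of Cdkn1a and not on that of Rbl1 or E2f1. At e18.5 a cluster of 8.53 RPM covered the Cdkn1a position without an entry for this seed. The 8mer of miR-221 and miR-222 in Cdkn1b, a textbook pair with a conservation score of 1, had 10.1 in e12.5 liver, 6.9 in e15.5 and 13.9 in e18.5, and was not listed in P7 or in adult. At P7 a cluster of 6.3 RPM covered its position without an entry for it, and another Cdkn1b 3′UTR match of the same family was listed with 4.12. In Ccnd2 the miR-26 8mer had 3.92 in e18.5, 0.727 in P7 and 1.77 in adult, and was not listed in e12.5 or in e15.5.

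Cdkn1a held the miR-122-5p site of the group with the highest reads, a 7mer-A1 at the end of its CDS, where 15 of the 17 bases of the fragment lie in the annotated CDS. It had 50.9 in e18.5, 11.9 in P7 and 12.6 in adult, and was not listed in e12.5 or in e15.5. In each of these 3 tables the reads of the site equaled the highest of its cluster. The conservation score was 1. miR-122-5p, the hepatocyte miRNA, made up 1.44% of miRNA reads at e12.5, 4.33% in e15.5, 9.2% in e18.5, 12.3% in P7 and 11.2% in adult. The 8mer of miR-122-5p in the 3′UTR of Ccng1, a textbook pair, had 7.61 in e18.5 and 0.667 in P7, and was not listed in e12.5, in e15.5 or in adult. At P7 its cluster had 1.33. In adult the Ccng1 3′UTR had 6 clusters, none with this site.

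CDS sites with at least 7 matched bases of an abundant miRNA were ranked by their clusters. Apart from the entries in Cdc20 and Top2a, whose own reads were far below their clusters, the highest lay in Mki67. Its miR-29a 8mer had 21.1 in e12.5 liver, 78.5 in e15.5, 19.4 in e18.5 and 7.45 in P7, and was not listed in adult. The same cluster held matches of miR-674-5p and miR-421-3p, so its reads cannot be assigned to 1 of these miRNAs. The conservation score of the miR-29a site was 0, in contrast to 0.911 for the Ccnf site of miR-30.

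**Figure D5:**
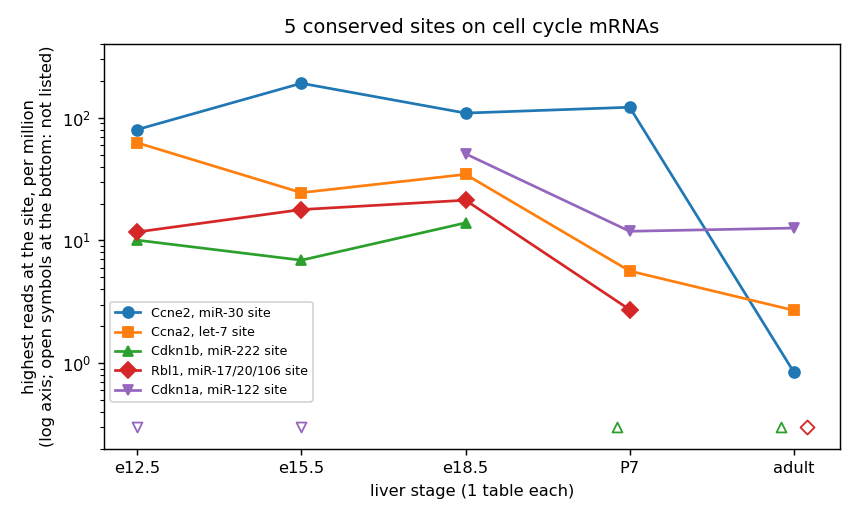
Highest reads at 5 sites, in RPM (log axis), in the 5 tables, with open symbols at the bottom where the site was not listed. The Ccne2 and Ccna2 sites are present throughout, the Cdkn1b and Rbl1 sites are missing in adult, and the Cdkn1a site is missing at e12.5 and e15.5.

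By seed family, the number of cell cycle genes with a 3′UTR site of at least 7 matched bases in any table was counted over the 44 of them with a 3′UTR cluster. The share of all 11065 genes with a 3′UTR cluster is given beside it. The miR-17 family had sites in 11 genes (25%, beside 6.17%), the miR-148 family in 10 genes (22.7%, beside 6.93%), miR-15/16 in 9 genes (20.5%, beside 11.4%) and let-7 in 8 genes (18.2%, beside 5.74%). The miR-17 sites lay in Ccna2, Ccnd1, Ccnd2, Cdc25a, Cdk2, Cdkn1a, E2f1, E2f2, E2f5, Rbl1 and Rbl2. The let-7 sites lay in Ccna2, Ccnd2, Ccng1, Cdk6, E2f2, E2f5, E2f6 and E2f7. miR-142a-3p, the leading miRNA of the embryonic tables with 32.2% of miRNA reads at e12.5, had sites in 2 genes (4.55%, beside 4.08%), Ccne2 and Cdc25c. Other families were below the share of all genes, among them miR-122 with 2 genes (4.55%, beside 6.05%), miR-27 with 4 genes (9.09%, beside 10.1%), miR-23 with 2.27% beside 5.37%, and miR-22 with no gene beside 3.96%. Genes with more clusters have more chances of a site, and these shares were not tested.

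The 36 textbook pairs of a family and a cell cycle gene were looked up in the 3′UTR and CDS. Of these, 25 were listed in at least 1 table, 21 of them in the 3′UTR. The count was 17 at e12.5, 11 in e15.5, 11 in e18.5, 15 in P7 and 9 in adult. These counts include 6mers. With at least 7 matched bases there were 14 at e12.5, 9 in e15.5, 10 in e18.5, 13 in P7 and 7 in adult. No share over other pairs of a family and a gene was computed. The counts thus do not show whether the textbook pairs were listed more often than others. Besides those above, the miR-15/16 pairs with Ccnd1, Ccnd2, Ccnd3, Ccne1, Cdc25a and E2f3 had 3′UTR sites. The miR-34 pairs with Ccnd1 and E2f3 were listed as 6mers in the CDS alone. The family made up 0.0145% of miRNA reads at e12.5 and 0.00708% in adult.

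Seed types of the 3′UTR sites were compared next. Among sites of the 100 most abundant miRNAs, 8mers made up 9.97% in the cell cycle genes and 11.6% overall at e12.5, and 13.8% and 13.1% in adult, where the cell cycle genes had 29 sites. The median conservation score at e12.5 was 0.338 beside 0.498 overall. At P7 it was 0.855 beside 0.415, so the order of the medians differed between tables.

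Other genes of the pathway were taken from 4 lists that did not include the 48. In the comparison of adult with e12.5, 12 of 14 genes of origin licensing and firing that passed the minimum were lower by 4-fold or more, with a median log2 change of -3.66. For the replication fork and nucleotide supply the count was 16 of 18 with a median of -3.52, and for other regulators of the cycle 14 of 17 with a median of -3.50. All 26 of 26 genes of mitosis and the spindle were lower, with a median of -4.77. No gene of the 4 lists was higher by 4-fold or more. The genes short of the limit were Orc2 and Orc3, 2 subunits of the origin recognition complex, in the first list. Orc3 had 7.2 RPM at e12.5 and 5.3 in adult. All genes had a median of -1.29 in this comparison, with 36.52% lower.

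Erythroid markers were also lower in adult. Of 15 erythroid markers, 12 were in the tables and all 12 were lower by 4-fold or more in adult than at e12.5. Without the globins, the 8 erythroid markers listed summed, in RPM, to 2136 in e12.5 liver, 4219.7 in e15.5, 1476 in e18.5, 405 in P7 and 10.6 in adult. Klf1, Slc4a1 and Gata1 were among those not listed in adult. In contrast, hepatocyte markers summed to 917 in e12.5 liver, 2779 in e15.5, 7488 in e18.5, 8250.2 in P7 and 10966 in adult, with 10 of 12 higher by 4-fold or more and none lower. Of the fetal hepatocyte markers, Afp, Igf2 and Dlk1 were lower and not listed in adult, and Ahsg was higher. The 8 leukocyte markers summed to 39.4 in e12.5 liver, 92.5 in e15.5, 355 in e18.5, 141 in P7 and 83.7 in adult, with 1 lower and 2 higher of 6 compared. Of 5 endothelial markers 4 were higher and none was lower, and of 5 stellate and mesenchymal markers compared 2 were higher and none was lower. No biliary marker reached the minimum. Of the 12 hepatocyte markers, 10 were listed at e12.5 and 10 in e15.5, and all 12 in the later tables. Alb had 342 RPM at e12.5 and 6218 in adult. The part of the erythroid cells in the changes of the cell cycle genes was not tested.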

How the data were processed

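Ago HITS-CLIP clusters of mouse liver were analyzed in 5 tables, 1 per stage (e12.5, e15.5 and e18.5 before birth, P7 and adult after it). The authors trimmed the reads with the FASTX-Toolkit, mapped them with Bowtie to mm10, grouped them into clusters and matched clusters to miRNA seeds (miRBase). The submitters' processing notes also name mm9, and tool versions are not given in the sources used here. All target fragments were equal to GRCm38 at the deposited coordinates, so mm10 was used. The deposited read number of a cluster is its highest coverage (signal), unscaled and at least 5. Its column has another name in the e12.5 table, which assigns the number to the miRNA target rather than to the peak, and was read in the same way. The deposited conservation score runs from 0 to 1, and its method is not given in the sources used here. The study's methods name biological replicates, which the labels do not tie to the tables. A deposited mfe score and the tables' other columns were not used.

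Here, the maximum read number of each cluster was summed per gene over the 3′UTR, CDS and 5′UTR and scaled to 1000000 of the table's summed cluster reads (RPM). Clusters of the 2 lists of an embryonic table were joined where they overlapped on 1 strand, and their reads were added. A change was the log2 ratio with a pseudocount of 1 RPM, for genes with at least 5 RPM in either table, and 4-fold (log2 of 2) was the limit. With 1 sample per stage no test was made and no p-value is given. Genes were named where an mRNA cluster was listed in at least 3 tables and the level reached 10 RPM in 1 (44 of 48; Cdkn2c and Rbl2 are given besides, chosen after their values were seen), and sites as the 12 pairs of gene and seed with the highest 3′UTR clusters of a single list, of which 1 is not reported here. The genes, gene lists and pairs were chosen with earlier results of these data known. A cluster of 5 reads equals 0.111 to 0.384 RPM, and such values cover few reads. Python 3.11.15, pandas 2.3.3, numpy 2.4.6 and pysam 0.24.0 were used, and the computation was tested on simulated data.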

Additional observations from a re-analysis of the deposited data

Results flagged for a closer look

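Mcm7 had a large signal outside its mRNA. Clusters listed under its introns or noncoding exons alone held 5577 RPM at e12.5, 7976 in e15.5, 4742 in e18.5, 4271 in P7 and 1862 in adult, above the floor of 5 reads in every table. Nearly all of these reads lay over the hairpins of Mir106b, Mir93 and Mir25, which are within Mcm7. These reads were not counted in the Mcm7 level above, but they are part of the summed cluster reads to which all levels were scaled. The Mcm7 mRNA reached 74.0 RPM at e15.5 and was not listed in adult.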

How the results depend on the processing

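No paired analysis was possible because each stage had 1 sample and no test was made. Of 161 values that an alternative setting could change, 142 were within 1.5 times of the reported ones. Only the median log2 change has a direction, and it stayed negative in every setting. The other values are counts and sums, which have none. Scaled to the reads of mRNA clusters, the summed level was 13494 RPM at e12.5, 14675 in e15.5, 7024 in e18.5, 4381 in P7 and 816 in adult. Scaled to library totals, it was 2077 at e12.5, 2712 in e15.5, 1244 in e18.5, 731 in P7 and 89.6 in adult. For e18.5 this total is that of 1 of the libraries named for that stage. Which of them the table's 2 lists came from is not given. The e18.5 value could thus be lower, even below that of P7. With the first list of the embryonic tables alone, e12.5 had 22 genes with a site of an abundant miRNA and 8 listed pairs. At e15.5 that list gave 18 genes with a 3′UTR cluster, 26 with a CDS cluster, 10 with such a site and 2 pairs. The second list alone gave 6 pairs at e18.5. With 3′UTR clusters only, 25 of 29 genes that passed the minimum were lower by 4-fold or more in adult, beside 52.8% of all genes, whose median log2 change was -2.14. A pseudocount of 10 RPM gave 27 lower genes of 44, beside 7.98% of all genes, 0 higher genes and a median log2 change of -2.36, and one of 0.1 gave -5.95. The cause of the differences between lists was not tested. Clusters under 5 reads were not seen, so a gene that is not listed in adult can still have had reads there.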
